A study of Sus scrofa domesticus with 6 samples.

Results

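This account follows 10 genes of oxygen sensing and of the response to low oxygen in the mandibular condyle of embryonic miniature pigs. The genes were looked up by name in the deposited table of 25322 gene rows, where 9 of the 10 names had a single row each. They are the hypoxia-inducible factor subunits HIF1A and EPAS1, the oxygen-sensing hydroxylases EGLN1 and EGLN3, the glycolytic enzymes LDHA and PGK1, the mitochondrial protein BNIP3, the carbonic anhydrase CA9 and the peptide hormone precursor ADM. No row was named SLC2A1, the glucose transporter GLUT1, and it was not analysed here. The series measured gene expression by RNA sequencing in condyles from embryos aged 85 days and 45 days, with 3 libraries per age. All 6 libraries carry the same further labels, which give cartilage as the tissue, chondrocytes and osteocytes as its source and primary cells as the cell type. The labels name no drug, allele or breed that separates the ages, and all libraries share the entry of cartilage osteogenesis as their treatment. The series title places the comparison in the ossification of the condyle, the cartilage-covered end of the lower jaw in the temporomandibular joint. The labels do not say whether each library came from its own embryo or from pooled embryos, so the p-values below describe the spread between these libraries, which may be technical.

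Cells read oxygen through the EGLN enzymes, which use it to hydroxylate prolines of the HIF alpha subunits and so mark them for destruction by the VHL ubiquitin ligase. When oxygen is scarce the alpha subunits persist, pair with ARNT and switch on genes for glucose uptake, glycolysis, vessel growth, pH control and removal of mitochondria. Because this control acts on the protein, mRNA levels of HIF1A and EPAS1 do not measure HIF activity. Growth cartilage has no vessels, and its chondrocytes are known to depend on HIF1A for survival and matrix synthesis and to rely heavily on glycolysis. EPAS1, also called HIF-2 alpha, is known from endothelial cells and from hypertrophic chondrocytes.

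Each library held between 12546729 and 16559616 counts, and the lowest count of any of the 9 genes in any library was 69, so all 9 passed the filter on low counts in both ages. Across 15022 genes tested with edgeR's quasi-likelihood test, 586 were higher and 400 lower at day 85 at an adjusted p under 0.05. With library totals as the only scaling those counts became 437 and 598. Day 85 replicate 2 stood apart. Its Spearman correlation across genes with the other day 85 libraries was 0.931 and 0.938, against 0.980 between those. With each day 45 library it was 0.939, so this library was as close to day 45 as to its own age by this measure. Leaving it out raised the calls to 1884 higher and 1528 lower, and leaving out any other single library left between 0 and 93 higher and between 0 and 25 lower. Levels below are TMM-normalised CPM, which are counts scaled to library size, unless FPKM, which also divides by gene length, is named. Fold changes are day 85 over day 45.

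Marker genes of several cell types differed between the ages. The 8 chondrocyte markers, none at 0 in any library, summed to between 1362 and 5331 CPM at day 85 and between 12339 and 15137 CPM at day 45. COL11A1 gave 979 CPM of the sum in day 85 replicate 1. COL2A1 stood at 28.8, 1074 and 50.6 CPM in day 85 libraries, against 4999, 4107 and 3733 CPM in day 45 libraries. MATN1 had only 2 counts in each of day 85 replicates 1 and 3. The 7 endothelial markers with a row, of 8 listed, summed to between 902 and 1431 CPM at day 85 and between 280 and 531 CPM at day 45, with none at 0. Of 10 skeletal muscle markers 8 had a row, and their sum was 29230, 2175 and 25439 CPM in day 85 replicates 1, 2 and 3, against 3223 to 7239 CPM at day 45. The 8 osteoblast and osteocyte markers summed to between 6084 and 18710 CPM at day 85 and between 2704 and 7231 CPM at day 45. None was at 0 in any library, but MEPE had only 1 count in day 85 replicate 3 and 4 in each day 45 library. The list pools osteoblast with osteocyte genes, so its counts do not show the labelled osteocytes on their own. These markers did not move together. Of the 7 tested, 5 had positive and 2 negative log2 fold changes, and edgeR called 0 higher and 1 lower. The 1 called was SOST, at a mean of 13.1 CPM at day 85 and 66.7 CPM at day 45 (edgeR adjusted p = 0.0160). The 8 osteoclast markers summed to between 1940 and 13889 CPM at day 85 and between 329 and 1347 CPM at day 45. OCSTAMP, an osteoclast fusion gene, was the 1 osteoclast marker at 0 in a library. In these bulk samples a change in the number of cells of a type and a change in RNA per cell cannot be told apart.

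Of the 9 genes, 2 rose at day 85 and 0 fell by edgeR, where 3.90% of all tested genes rose and 2.66% fell. EPAS1 rose 2.58-fold and ADM 2.53-fold. HIF1A, LDHA, PGK1, BNIP3 and CA9 all had negative log2 fold changes, between -0.63 and -0.38, and none of these passed. For each of those 5 genes the 3 day 85 libraries lay below the 3 day 45 libraries, a pattern found downward in 17.6% of all tested genes and upward in 17.4%. By a raw p below 0.05, 2 of the 9 were higher and 5 lower, where 15.8% and 13.3% of all tested genes were. DESeq2 called the same 2 higher and these 5 lower, with 12.6% and 10.8% of its tested genes called, and limma-voom called 2 higher and 0 lower, with 3.29% and 2.50% of all genes called. Without day 85 replicate 2, edgeR called EPAS1, ADM and EGLN1 higher and HIF1A lower, where 12.3% of 15271 tested genes were called higher and 1528 of them lower. The median log2 fold change over the 9 genes was -0.38, beside 0.02 over all tested genes. The ages overlapped for EGLN1 and EGLN3 and for none of the other 7. The chondrocyte marker sum was lower and the endothelial marker sum higher in the same 3 libraries. The part of either in these values was not tested.

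**Figure D1:**
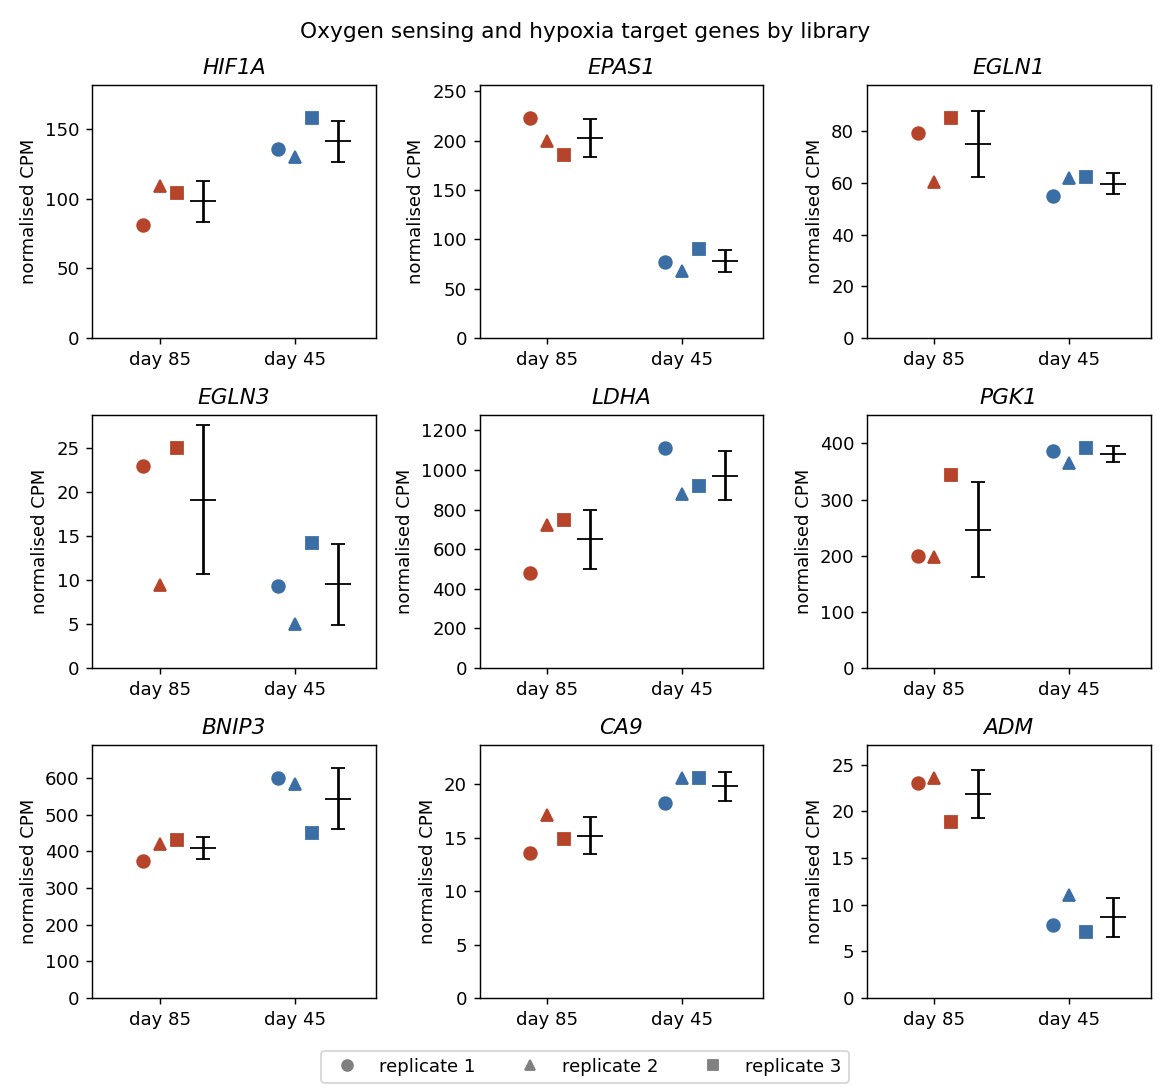
Normalised CPM of the 9 genes in each library, day 85 left of day 45 in every panel, with marker shapes for the replicates and a dash with bars for the mean and SD of 3 libraries. EPAS1 and ADM lie higher in all day 85 libraries, HIF1A, LDHA, PGK1, BNIP3 and CA9 lie lower in all of them, and day 85 replicate 2 falls among the day 45 values for EGLN1 and EGLN3.

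EPAS1, the HIF-2 alpha subunit, stood at 223, 200 and 185 CPM in day 85 libraries and at 77.4, 67.8 and 90.1 CPM in day 45 libraries. The lowest day 85 library lay well above the highest day 45 library. EPAS1 averaged 203 ± 19.2 CPM at day 85 and 78.4 ± 11.2 CPM at day 45 (SD, n = 3 each), a log2 fold change of 1.37 ± 0.15 (SE; edgeR adjusted p = 0.0160). The call held without day 85 replicate 2 (adjusted p = 0.00344) and without day 85 replicate 3 (adjusted p = 0.0485). It was lost without day 85 replicate 1 (adjusted p = 0.0547) and without day 45 replicates 1, 2 and 3 (adjusted p = 0.109, 0.0774 and 0.0518), with the log2 fold change between 1.27 and 1.48 in these fits. The gene lies at chr3:100173612-100213334 by the coordinates in the authors' table. The sources used here do not name its genome build.

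HIF1A, the HIF-1 alpha subunit, stood at 81.3, 109 and 104 CPM in day 85 libraries and at 136, 130 and 158 CPM in day 45 libraries. The ages did not overlap, with day 85 replicate 1 the lowest of all 6. HIF1A averaged 98.1 ± 14.7 CPM at day 85 and 141 ± 14.6 CPM at day 45 (SD, n = 3 each), a log2 fold change of -0.52 ± 0.15 (SE), which did not pass (edgeR adjusted p = 0.0841). It passed without day 85 replicate 2 at -0.61 (adjusted p = 0.0351) and in DESeq2 with all libraries (adjusted p = 0.00411). HIF1A lies at chr1:212130958-212179888 in the same coordinates.

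On the FPKM scale, the EPAS1 level was 1.64, 1.10 and 1.06 times the HIF1A level in day 85 libraries 1, 2 and 3, against 0.340, 0.313 and 0.342 times in day 45 libraries 1, 2 and 3. The ratio exceeded 1 in every day 85 library and in no day 45 library. Its mean was 1.27 ± 0.323 at day 85 and 0.332 ± 0.0163 at day 45 (SD, n = 3 each), and the two-sided exact permutation test gave p = 0.1, the smallest that 3 libraries per age allow. The chondrocyte marker sum was lower at day 85, where the ratio was higher. Of the chondrocyte markers COL11A1, SOX9 and HAPLN1 fell, 3 of 8, and 0 rose. Of the endothelial markers PECAM1, VWF, TIE1 and CLDN5 rose, 4 of 7, and 0 fell. Without day 85 replicate 2 these counts were 7 of 8 and 7 of 7, and without any other single library 0 of 8 and at most 1 of 7. Their part in the ratio was not tested.

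Neither of the 2 hydroxylases, which mark HIF alpha subunits for degradation, passed edgeR's test of age alone on all libraries. EGLN1, the main enzyme of this kind in most cells, stood at 79.3, 60.5 and 85.1 CPM in day 85 libraries and at 54.9, 61.8 and 62.1 CPM in day 45 libraries. Day 85 replicate 2 lay within the day 45 range and the other day 85 libraries above it. The log2 fold change was 0.33 ± 0.15 (SE; edgeR adjusted p = 0.210), and without day 85 replicate 2 it was 0.46 and passed (adjusted p = 0.0301). EGLN1 lies at chr14:63787307-63840383.

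EGLN3, a hydroxylase that is itself induced by HIF, stood at 23.0, 9.40 and 25.0 CPM in day 85 libraries and at 9.37, 4.98 and 14.2 CPM in day 45 libraries. Its lowest day 85 value was again that of replicate 2, inside the day 45 range, while replicates 1 and 3 lay above every day 45 library. The log2 fold change was 1.00 ± 0.49 (SE; edgeR adjusted p = 0.230), and 1.33 without day 85 replicate 2 (adjusted p = 0.0618). EGLN3 lies at chr7:70667589-70695692.

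The skeletal muscle marker sum has the same split among the day 85 libraries, with 29230 and 25439 CPM in replicates 1 and 3 and 2175 CPM in replicate 2. All 8 measured muscle markers had positive log2 fold changes with a median of 2.41, and 0 passed in edgeR, with 4 higher at a raw p below 0.05. Without day 85 replicate 2 edgeR called 7 of the 8 higher, and DESeq2 called 4 with all libraries. Over all tested genes these 2 fits called 12.3% and 12.6% higher, and 15.8% were higher at a raw p below 0.05 with all libraries. The part of muscle RNA in the EGLN1 and EGLN3 values was not tested.

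**Figure D2:**
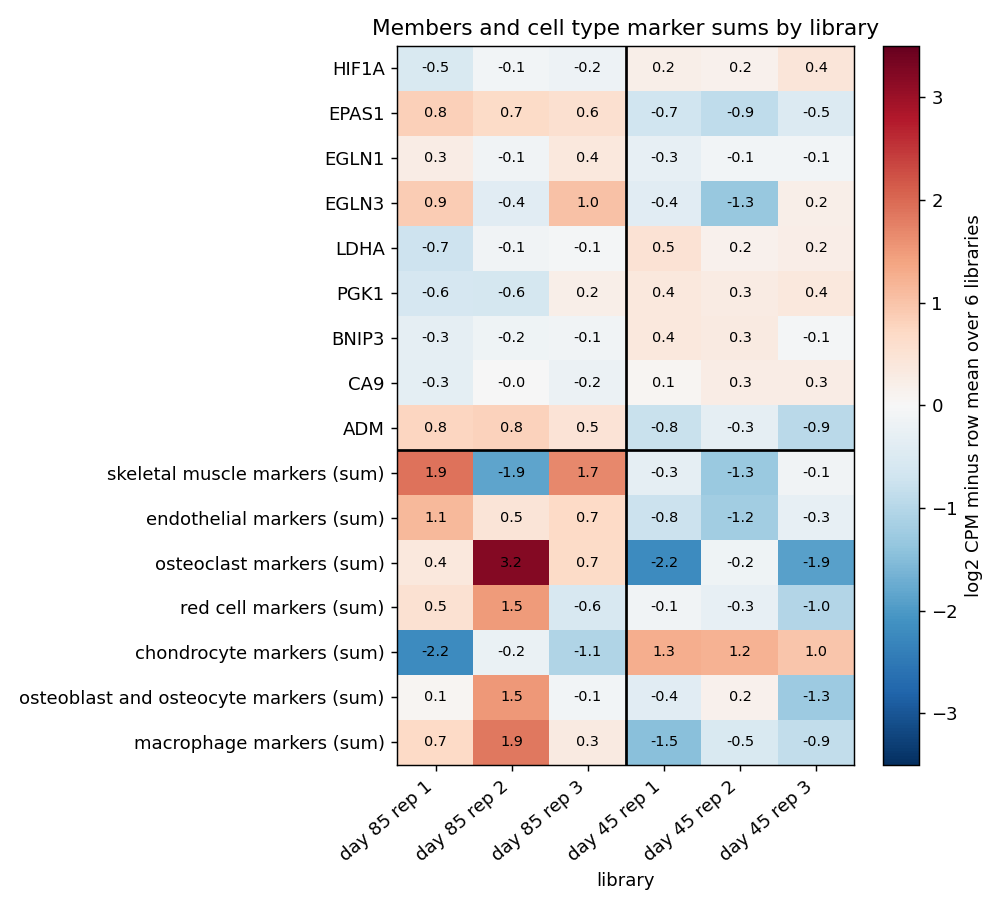
Log2 CPM of each gene, and of each summed marker list, minus the mean of its row over the 6 libraries, with day 85 libraries in the left 3 columns and day 45 libraries in the right 3. EGLN3 and the skeletal muscle sum are high in day 85 replicates 1 and 3 and low in replicate 2, whereas EPAS1, ADM and the endothelial sum are high in all day 85 libraries.

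LDHA, the lactate dehydrogenase subunit that favours turning pyruvate into lactate, stood at 479, 721 and 748 CPM in day 85 libraries and at 1112, 878 and 922 CPM in day 45 libraries. Day 85 replicate 1 was the lowest library and day 45 replicate 1 the highest, and the ages did not overlap. LDHA averaged 650 ± 148 CPM at day 85 and 971 ± 125 CPM at day 45 (SD, n = 3 each), a log2 fold change of -0.58 ± 0.21 (SE), which did not pass (edgeR adjusted p = 0.131; DESeq2 adjusted p = 0.0367). The FPKM ratio of LDHA to LDHB, the subunit favoured by oxidative tissues, was 1.21, 2.59 and 2.51 in day 85 libraries 1, 2 and 3, against 2.61, 2.38 and 2.53 in day 45 libraries 1, 2 and 3. Day 85 replicate 1 lay far below the other 5, which ran from 2.38 to 2.61 (two-sided exact permutation p = 0.600). LDHA lies at chr2:43898277-43909456. The row used for LDHB spans only chr2:12622307-12623588. It may be a copy of LDHB rather than LDHB itself, so the ratio may not compare the subunits.

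PGK1, phosphoglycerate kinase, which makes ATP in the lower part of glycolysis, stood at 199, 197 and 344 CPM in day 85 libraries and at 387, 365 and 392 CPM in day 45 libraries. The day 45 values were tight, and day 85 replicate 3 came close to them while replicates 1 and 2 lay far below. PGK1 averaged 247 ± 84.6 CPM at day 85 and 381 ± 14.6 CPM at day 45 (SD, n = 3 each), a log2 fold change of -0.63 ± 0.23 (SE; edgeR adjusted p = 0.138; DESeq2 adjusted p = 0.0379). Without day 85 replicate 3 its log2 fold change was -0.95, just outside the threshold (adjusted p = 0.0508), and without replicate 2 it was -0.49 (adjusted p = 0.175). PGK1 lies at chrX:71339754-71352751. LDHA, PGK1 and GAPDH have near-identical processed copies in many mammals, and the sources used here do not say how the authors counted reads that match several places.

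Around these members, 19 of 21 listed genes of glycolysis and lactate handling had a row and were tested. Of these edgeR called 0 higher and 0 lower, beside 3.90% and 2.66% of all tested genes. A raw p below 0.05 was reached by 0 upward and 2 downward, beside 15.8% and 13.3% of all tested genes. DESeq2 called 0 higher and 2 lower, PGAM1 and the lactate transporter SLC16A1, and limma-voom called 0 in either direction. Over all their tested genes, DESeq2 called 12.6% higher and 10.8% lower, and limma-voom 3.29% and 2.50%. Once day 85 replicate 2 was left out, edgeR gave 2 calls up, PFKM and PFKFB4, and 2 down, PGAM1 and ENO1. These 5 genes are named after their values were seen. Over the list the log2 fold change had a median of -0.16. PKM, the pyruvate kinase gene, stood at 1525 ± 239 CPM in day 85 libraries and 1740 ± 152 CPM in day 45 libraries (adjusted p = 0.497), and GAPDH at 1463 ± 342 CPM in day 85 libraries and 1319 ± 208 CPM in day 45 libraries (adjusted p = 0.685; SD, n = 3 each).

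The values differed along the pathway, in a split drawn after the values were seen. From PGK1 onward, all 7 genes counted (PGK1, PGAM1, ENO1, ENO2, PKM, LDHA and LDHB) had negative log2 fold changes between -0.79 and -0.19. Their median was -0.58, and LDHB rests on the short row described above. The muscle forms ENO3 and PGAM2 act at the same later steps but were not counted, and had positive values of 2.73 and 2.04. The earlier steps do count a muscle form, PFKM, so the split depends on which forms are counted. In 4 of the 7 the day 85 libraries lay wholly below the day 45 libraries, a pattern found in 17.6% of all tested genes. Of the 9 genes of the earlier steps, 4 had positive and 5 negative values, with a median of -0.04, and for 0 of them did the ages separate. ALDOA had no row. Without day 85 replicate 2 the 9 kept their signs, but HK1, PFKL and ALDOC then stood at -0.53, -0.47 and -0.80. The 7 later genes lay between -1.18 and -0.16 in that fit, so the split was less clear there. PGAM1, phosphoglycerate mutase, stood at 131, 311 and 192 CPM in day 85 libraries and at 412, 355 and 329 CPM in day 45 libraries (adjusted p = 0.149). ENO1, enolase, stood at 420, 982 and 680 CPM in day 85 libraries and at 1181, 1066 and 1038 CPM in day 45 libraries (adjusted p = 0.195). Both had their highest day 85 value in replicate 2, and without it both passed, at log2 fold changes of -1.18 (adjusted p = 0.00973) and -0.99 (adjusted p = 0.0258). The chondrocyte marker sum had the same order at day 85, with 1362, 5331 and 3004 CPM in replicates 1, 2 and 3, and lay at 12339 to 15137 CPM at day 45. Its part in the PGAM1 and ENO1 values was not tested.

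PFKM, the phosphofructokinase of muscle, had the opposite sign, at 140, 40.1 and 149 CPM in day 85 libraries and at 57.4, 47.6 and 48.5 CPM in day 45 libraries (adjusted p = 0.183). Its replicate 2 value lay below every day 45 library, and without that library it passed, again with a positive value (adjusted p = 0.00149). The muscle marker sum has the same high and low libraries at day 85, and its part in the PFKM value was not tested. ENO3 and PGAM2, the enolase and mutase of muscle that are on the muscle marker list, had log2 fold changes of 2.73 and 2.04, opposite in sign to ENO1 and PGAM1, and did not pass with all libraries. Without day 85 replicate 2 both passed, at 3.24 (adjusted p = 0.00391) and 2.56 (adjusted p = 0.00648).

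**Figure D3:**
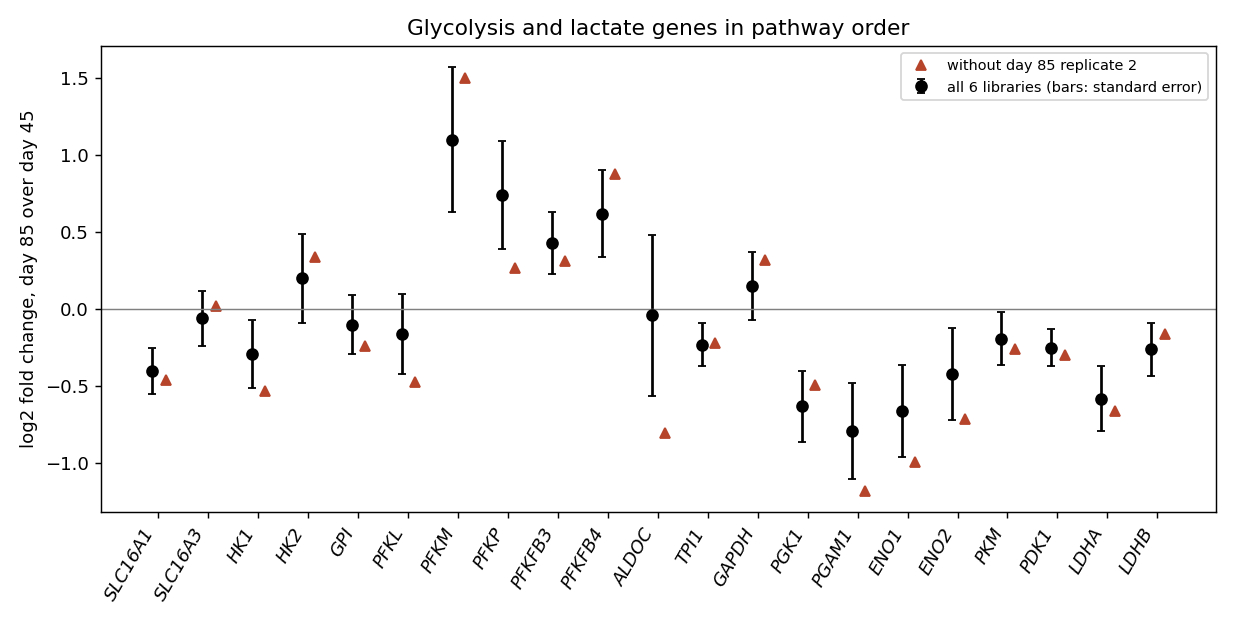
Log2 fold change of 21 genes, the 19 tested genes of the glycolysis and lactate list plus PGK1 and LDHA, in rough pathway order with the lactate transporters at the far left, with circles and SE bars for all 6 libraries and triangles for the fit without day 85 replicate 2. The genes drawn from PGK1 rightward lie below 0 in both fits, whereas HK2, PFKM, PFKP, PFKFB3, PFKFB4 and GAPDH lie above 0 in both. The muscle forms ENO3 and PGAM2, which had positive values, are not drawn.

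BNIP3, a protein of the outer mitochondrial membrane that marks mitochondria for removal by autophagy, stood at 374, 420 and 431 CPM in day 85 libraries and at 600, 582 and 449 CPM in day 45 libraries. The ages did not overlap, but only because day 45 replicate 3 stayed narrowly above day 85 replicate 3. BNIP3 averaged 408 ± 30.1 CPM at day 85 and 544 ± 82.5 CPM at day 45 (SD, n = 3 each), a log2 fold change of -0.41 ± 0.16 (SE; edgeR adjusted p = 0.140; DESeq2 adjusted p = 0.0404). BNIP3 lies at chr14:152194734-152204810. Of 7 other mitophagy genes, edgeR called 0, with 2 higher and 1 lower at a raw p below 0.05, where 15.8% and 13.3% of all tested genes were. DESeq2 called 2 higher, PINK1 and MAP1LC3B, where it called 12.6% of its tested genes higher, and limma-voom called 0. The 2 most abundant, the autophagosome proteins GABARAP and MAP1LC3A, had log2 fold changes of 0.11 and 0.13 (adjusted p = 0.618 and 0.683). PINK1, a kinase of the other main mitophagy route and named after its values were seen, stood at 123, 58.7 and 93.8 CPM in day 85 libraries and at 50.1, 45.2 and 50.4 CPM in day 45 libraries (adjusted p = 0.0770), and passed without day 85 replicate 2 (adjusted p = 0.00408).

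CA9, a cell-surface carbonic anhydrase that helps cells dispose of acid, stood at 13.6, 17.1 and 14.9 CPM in day 85 libraries and at 18.2, 20.6 and 20.6 CPM in day 45 libraries. Every day 85 library lay below every day 45 library, with replicate 2 nearest to them. CA9 averaged 15.2 ± 1.75 CPM at day 85 and 19.8 ± 1.37 CPM at day 45 (SD, n = 3 each), a log2 fold change of -0.38 ± 0.15 (SE; edgeR adjusted p = 0.142; DESeq2 adjusted p = 0.0464). It rests on 176 to 315 counts per library and lies at chr1:264119361-264126033. Of 6 other carbonic anhydrases 4 could be tested, with 0 called in edgeR or limma-voom, 2 higher at a raw p below 0.05 and 3 of the 6, CA2, CA4 and CA14, higher in DESeq2. Over all tested genes 15.8% were higher at a raw p below 0.05, and DESeq2 called 12.6% higher. CA3, the abundant muscle form, had 340, 211 and 378 CPM in day 85 libraries and 272, 240 and 221 CPM in day 45 libraries (adjusted p = 0.354), and passed without day 85 replicate 2 (adjusted p = 0.0302). CA2, the form that osteoclasts use to make acid, had 24.5, 96.5 and 24.6 CPM in day 85 libraries and 10.4, 15.3 and 3.53 CPM in day 45 libraries (adjusted p = 0.115). CA2 peaked in day 85 replicate 2, the library with the highest osteoclast marker sum, and the part of osteoclast RNA in it was not tested.

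ADM, the precursor of adrenomedullin, a peptide that widens vessels and tightens their lining and is a common hypoxia target, stood at 23.0, 23.6 and 18.9 CPM in day 85 libraries and at 7.84, 11.0 and 7.07 CPM in day 45 libraries. All day 85 libraries, replicate 2 included, lay above all day 45 libraries. ADM averaged 21.9 ± 2.55 CPM at day 85 and 8.65 ± 2.10 CPM at day 45 (SD, n = 3 each), a log2 fold change of 1.34 ± 0.21 (SE; edgeR adjusted p = 0.0259). The call held without day 85 replicate 2 (adjusted p = 0.0102). It was lost without day 85 replicates 1 and 3 (adjusted p = 0.0707 and 0.0560) and without day 45 replicates 1, 2 and 3 (adjusted p = 0.125, 0.0774 and 0.0693). ADM lies at chr2:52576215-52578540, on the same chromosome as LDHA.

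Of 6 listed genes, mostly of adrenomedullin reception, 5 had positive log2 fold changes. In edgeR 1 of them passed as higher, beside 3.90% of all tested genes. The median over the 6 was 0.84. DESeq2 called 3 higher, edgeR called 3 higher without day 85 replicate 2, and limma-voom called 1. Over all tested genes these fits called 12.6%, 12.3% and 3.29% higher. The gene that passed in edgeR with all libraries, ACKR3, a scavenging receptor for the chemokine CXCL12 and for adrenomedullin, rose 2.00-fold, with 50.4, 56.8 and 45.9 CPM in day 85 libraries and 27.9, 24.2 and 24.6 CPM in day 45 libraries (edgeR adjusted p = 0.0200). The call held without day 85 replicates 2 and 3 and was lost without each of the other 4 libraries. RAMP2, which pairs with CALCRL to form the main adrenomedullin receptor, stood at 149, 108 and 97.2 CPM in day 85 libraries and at 76.0, 67.0 and 76.8 CPM in day 45 libraries (edgeR adjusted p = 0.0676; 0.0323 without day 85 replicate 2; DESeq2 adjusted p = 0.00249). CALCRL, named after its values were seen, stood at 21.3, 15.3 and 16.2 CPM in day 85 libraries and at 5.45, 2.67 and 9.94 CPM in day 45 libraries (edgeR adjusted p = 0.0849; DESeq2 adjusted p = 0.00163). Neither overlapped between ages. RAMP1, the partner that makes CALCRL a receptor for calcitonin gene-related peptide, spread from 17.2 to 121 CPM at day 85 and from 24.3 to 39.6 CPM at day 45 (adjusted p = 0.267; 0.0160 without day 85 replicate 2). The endothelial marker sums given above were higher in the same libraries, and their part in these values was not tested.

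**Figure D4:**
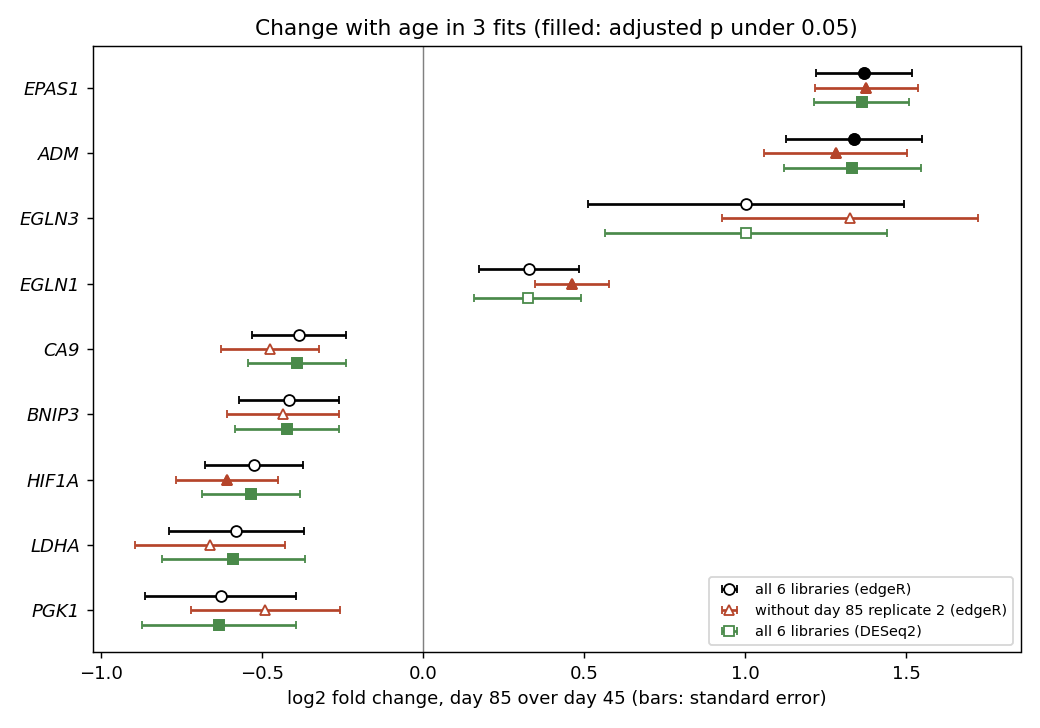
Log2 fold change of each gene, day 85 over day 45, with SE bars, in edgeR with all libraries, edgeR without day 85 replicate 2 and DESeq2, with filled symbols for an adjusted p under 0.05. EPAS1 and ADM are filled in all 3 fits, the 5 genes below 0 are filled in DESeq2, and in edgeR HIF1A and EGLN1 are filled only without that library.

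The rest of the HIF machinery gave 0 calls among 12 tested genes of 14 listed, with 0 at a raw p below 0.05 and 0 in DESeq2 and limma-voom. Without day 85 replicate 2 edgeR called 1 higher, the alpha subunit HIF3A (adjusted p = 0.0172), where 12.3% of all tested genes were. The median log2 fold change was 0.04. CREBBP and EP300, the acetyltransferases that HIF recruits to its targets, stood at 204 ± 21.9 and 170 ± 13.8 CPM at day 85 and at 173 ± 18.3 and 155 ± 8.03 CPM at day 45 (SD, n = 3 each; adjusted p = 0.295 and 0.498). ARNT, the partner of both alpha subunits and named here for that role, stood at 66.9 ± 2.96 CPM in day 85 libraries and 62.1 ± 3.67 CPM in day 45 libraries (SD, n = 3 each), a log2 fold change of 0.11 ± 0.11 (SE; adjusted p = 0.534). VHL, which recognises hydroxylated HIF and is likewise named for its role, had a log2 fold change of -0.17 ± 0.15 (SE; adjusted p = 0.486).

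Among 28 tested genes of 33 listed as induced by hypoxia in other settings, 4 rose and 1 fell, beside 3.90% and 2.66% of all tested genes. The median log2 fold change of the list was 0.10. BHLHE40, a transcriptional repressor that HIF and the circadian clock both control, rose 2.81-fold, with 108, 122 and 115 CPM in day 85 libraries and 39.7, 43.1 and 39.8 CPM in day 45 libraries (edgeR adjusted p = 0.00811). Neither age spread by more than a small part of the gap between them. CITED2, which competes with HIF for CREBBP and EP300, rose 1.82-fold, with 52.6, 57.7 and 42.6 CPM in day 85 libraries and 29.0, 27.6 and 27.4 CPM in day 45 libraries (adjusted p = 0.0287). MXI1, an antagonist of MYC, rose 1.46-fold (adjusted p = 0.0452) and VEGFA, the vessel growth factor, 1.72-fold (adjusted p = 0.0465).

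TMEM45A, a membrane protein gene, fell to 13.8, 24.5 and 22.4 CPM in day 85 libraries, against 42.4, 48.5 and 43.0 CPM in day 45 libraries (log2 fold change -1.14, adjusted p = 0.0379). The most abundant genes of the list, PLOD1, a collagen lysyl hydroxylase, and WSB1, a ubiquitin ligase part, had log2 fold changes of -0.35 and 0.08 and did not pass (adjusted p = 0.291 and 0.679). MIF, a cytokine gene named after its values were seen, stood at 165, 286 and 211 CPM in day 85 libraries and at 417, 426 and 322 CPM in day 45 libraries (adjusted p = 0.0750). In this list, edgeR called 4 higher and 4 lower without day 85 replicate 2, 1 and 2 higher without day 85 replicates 1 and 3, and 0, 0 and 1 higher without day 45 replicates 1, 2 and 3, with 0 lower in those 5 fits. DESeq2 called 7 higher and 4 lower, and limma-voom 2 higher and 1 lower. Of the 10 alternatives that kept all libraries, BHLHE40, CITED2 and TMEM45A were called in 10, MXI1 in 4 and VEGFA in 3, with adjusted p of up to 0.0822 for MXI1 and 0.0773 for VEGFA.

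Levels can be ordered between genes on the FPKM scale. At day 85 LDHA led with 379 ± 76.1 FPKM, followed by BNIP3 (235 ± 13.0), PGK1 (47.6 ± 16.7), EPAS1 (41.8 ± 5.39), HIF1A (33.7 ± 3.78), EGLN1 (30.0 ± 6.20), ADM (14.2 ± 1.67), CA9 (9.92 ± 0.649) and EGLN3 (5.78 ± 2.71), each as mean ± SD of 3 libraries. At day 45 the order was LDHA with 582 ± 74.0 FPKM, BNIP3 (319 ± 33.1), PGK1 (75.3 ± 6.75), HIF1A (46.9, 43.8 and 59.2 in replicates 1, 2 and 3), EGLN1 (24.3 ± 2.54), EPAS1 (16.6 ± 3.32), CA9 (13.3 ± 1.38), ADM (5.70 ± 1.14) and EGLN3 (2.96 ± 1.59). Neighbours whose libraries overlapped were PGK1 with EPAS1 and HIF1A with EGLN1 at day 85, and EPAS1 with CA9 at day 45. EPAS1 thus ranked above HIF1A and EGLN1 at day 85 and below them at day 45, and ADM likewise with CA9, while LDHA and BNIP3 at the top and EGLN3 at the end kept their places. PGK1 came next after BNIP3 by its mean in both ages. At day 85 this rested on replicate 3, where PGK1 had 66.8 FPKM and EPAS1 38.3 FPKM, since EPAS1 at 48.1 and 39.2 FPKM lay above PGK1 at 40.1 and 36.0 FPKM in replicates 1 and 2.

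The genes most like EPAS1, ADM and EGLN3, the 3 members with the largest log2 fold changes in size, were sought among 8212 named genes averaging at least 10 CPM. Likeness was the Euclidean distance between log2 CPM deviations from each gene's mean over the 6 libraries. The nearest genes lie below the median distance by the way they are picked, so the medians below give only the scale. Nearest to EPAS1 were CD93, a receptor of endothelial and myeloid cells, at a distance of 0.234, and the endothelial protocadherin PCDH12 at 0.263, against a median distance of 1.84 over all genes compared. CD93 stood at 383, 357 and 333 CPM in day 85 libraries and at 134, 134 and 185 CPM in day 45 libraries, so that, as for EPAS1, day 85 replicate 1 and day 45 replicate 3 were the highest of their ages. Nearest to ADM were the tetraspanin TSPAN4 at 0.199, RARRES2, the precursor of the chemoattractant chemerin, at 0.290 and SLA-11, a swine MHC class I gene whose reads may be shared with its relatives, at 0.424, with a median of 1.86. Nearest to EGLN3 were ABCC9, a potassium channel subunit of muscle and pericytes, at 0.343, the RNA-binding protein CELF2 at 0.357 and the cadherin CDH13 at 0.413, with a median of 2.12. ABCC9 stood at 85.9, 36.0 and 109 CPM in day 85 libraries and at 29.4, 19.3 and 51.7 CPM in day 45 libraries, again with replicate 2 the lowest in each age.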

How the data were processed

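The authors deposited whole-number read counts per gene with FPKM values beside them, per the file headers. HISAT2 is named, without a version, in the submitters' processing notes; the counting program, strand setting and annotation are not stated in any source read. Per the labels' protocols, ribosomal RNA was removed and the second cDNA strand degraded. For 10748 genes with at least 50 counts in every library, the deposited FPKM followed the count over the library total and a constant per gene within 0.00123%.

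The titles of the libraries give the age groups. The deposited counts went unchanged into edgeR 4.0.16 (R 4.3.3; filterByExpr with a minimum count of 10, TMM scaling, robust quasi-likelihood F test, age as the only factor) over all genes, with p-values adjusted by the Benjamini-Hochberg method and a threshold of 0.05. The SE is the size of the log2 fold change over the square root of F. DESeq2 1.42.0 and limma 3.58.1 served as alternatives. On counts simulated with the spread of these libraries, edgeR called most 4-fold changes and missed most 2-fold ones, and its share of false calls exceeded the threshold in all 3 simulations. No pair of libraries was a duplicate: the chi-square per degree of freedom over genes was at least 20.2.

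The 9 genes with a row, 6 pathway lists and 8 marker lists were chosen with earlier results of these data known. List names with no named row were matched through a table of gene IDs, and elongins B and C through their older symbols. Named genes are all members and, per pathway list, up to 6 called genes and the 2 most abundant; others are marked in the text or named as markers. For EPAS1, ADM and EGLN3 the 3 genes nearest in pattern are also named, except that 1 of those nearest to EPAS1 is not reported here. FPKM served only to compare levels between genes and for 2 alternative fits. Markers of red cells (7 of 8 with a row, KLF1 at 0 in some libraries) summed to between 592 and 2471 CPM at day 85 and between 430 and 811 CPM at day 45. Macrophage markers (8 of 8, CD163 at 0 in some) summed to between 275 and 798 CPM at day 85 and between 79.4 and 152 CPM at day 45. Adipocyte markers (2 of 4, PLIN1 at 0 in some) summed to between 2.16 and 5.54 CPM at day 85 and between 0.523 and 0.649 CPM at day 45.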

Additional observations from a re-analysis of the deposited data

How the results depend on the processing

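All 9 genes kept the sign of their log2 fold change in all 16 alternatives (3 scalings, 2 filters, DESeq2, limma-voom, limma-trend on log2 of FPKM plus 1 or plus 0.1, a replicate block and 6 fits without 1 library). In the 10 that kept all libraries, EPAS1 and ADM were called in all 10. DESeq2 called 5 members lower, where edgeR called 0, and 2064 genes higher and 1770 lower in all. Without 1 library, the members called ran from 0 to 3 higher and from 0 to 1 lower, and all genes from 0 to 1884 higher and from 0 to 1528 lower. In the edgeR fit that called 0 genes, without day 45 replicate 2, 1724 genes reached a raw p below 0.05 upward and 1332 downward.

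The titles number the libraries 1 to 3 in each age, and 3 numbers are too few to show whether they pair the libraries. Deviations from the age means correlated at 0.035, 0.302 and 0.103 for numbers 1, 2 and 3. Day 85 replicate 1 correlated best with day 45 replicate 3 (0.285), whereas day 85 replicates 2 and 3 each correlated best with their own number. With the replicate number as a block, 465 genes were higher and 217 lower, and 3 members were higher, with EGLN3 added (adjusted p = 0.0488), and 0 lower. ADM at 108 to 354 counts, CA9 at 176 to 315 and EGLN3 at 69 to 379 counts per library are the least precisely counted members. The cause of these differences between fits was not tested.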

Other observations

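The deposited table carries its own annotation of the pathway. These gene sets were looked at after the data were seen, and their counts are a description. Of 62 rows under the KEGG term for HIF-1 signalling, which holds HIF1A and EGLN3 of the members, 54 were tested, with a median log2 fold change of 0.23. In edgeR 6 rose and 1 fell, beside 3.90% and 2.66% of all tested genes. NOS3, the nitric oxide synthase of endothelium, rose 2.69-fold, to 52.0 ± 2.74 CPM at day 85, against 19.3 ± 3.76 CPM at day 45 (SD, n = 3 each; edgeR adjusted p = 0.0178). The inducible synthase NOS2 rose 2.59-fold (adjusted p = 0.0386), CYBB, the phagocyte oxidase subunit, 2.79-fold (adjusted p = 0.0414), the interferon receptor IFNGR1 1.78-fold (adjusted p = 0.0431) and the kinase gene MKNK1 1.49-fold (adjusted p = 0.0352). EIF4E2, a cap-binding protein, fell to 38.4 ± 5.24 CPM at day 85, against 60.8 ± 4.50 CPM at day 45 (adjusted p = 0.0431).

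Of 119 rows under the Gene Ontology term for the response to hypoxia, which holds 5 members, 109 were tested, with a median of 0.14. Of these, 8 rose and 2 fell, beside 3.90% and 2.66% of all tested genes. Besides EPAS1 and NOS2, those that rose were the chemokine receptor CXCR4 (2.71-fold), TIGAR, a brake on glycolysis (2.29-fold), the endothelial and progenitor marker CD34 (2.01-fold), BACH1 (1.84-fold), the endothelial co-receptor ENG (1.64-fold) and SDHD, a subunit of succinate dehydrogenase (1.63-fold), with adjusted p from edgeR of 0.0449, 0.0277, 0.0247, 0.0372, 0.0431 and 0.0428. HSP90B1, a chaperone of the secretory route, fell to 410 ± 81.8 CPM at day 85, against 720 ± 26.2 CPM at day 45 (SD, n = 3 each; adjusted p = 0.0449), and TERT fell to 1.56 ± 0.495 CPM at day 85, against 5.95 ± 0.990 CPM at day 45 (adjusted p = 0.0247). The endothelial marker sums were higher in the same day 85 libraries, and their part in the values of NOS3, CD34 and ENG was not tested.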
